A study of Mus musculus with 2 samples.

Results

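Genes of cholesterol efflux and of its control by liver X receptors (LXR) were examined in mouse splenic B cells. The group comprised 10 genes: the sterol efflux pumps Abca1 and Abcg1, the LXR genes Nr1h2 and Nr1h3, the retinoid X receptor genes Rxra and Rxrb, the LXR targets Mylip, Apoe and Srebf1, and the oxysterol hydroxylase gene Cyp39a1. Every probe set assigned to one of these genes alone was taken, which gave 12 probe sets for 9 genes out of 20380 probe sets with 1 gene. No probe set carried the symbol Nr1h2, so its expression was not analysed here. Of the 12 probe sets 10, from 8 genes, exceeded the detection floor described below, out of 7695 genes that did so in all. The genes had been grouped with their differences between the arrays in view, so their values are given as a description.

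The series consists of 2 single-channel Affymetrix arrays, 1 of marginal zone B cells and 1 of follicular B cells. Both populations came from wild-type female C57BL/6 spleens, with 3 mice per B cell preparation. They were enriched on B220 beads and separated by flow sorting, marginal zone cells as CD21 high and CD23 intermediate and follicular cells as CD23 high and CD21 intermediate. Sorted cells were pooled before lysis, about 100 ng of total RNA was labelled in 2 cycles, and the labels leave unsaid whether both sorts used the same mice. With 1 array of each population there is no replicate error and no test between them can be made, so differences are given as sizes and the number of arrays limits their precision.

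LXR alpha and LXR beta are nuclear receptors that are activated by oxysterols, the oxidised derivatives of cholesterol, and that bind DNA as dimers with a retinoid X receptor. When sterols accumulate they switch on genes that export cholesterol, such as Abca1 and Abcg1, genes that limit its uptake, such as Mylip, and Srebf1, which directs fatty acid synthesis. The opposite branch, run by SREBP-2, raises cholesterol synthesis when sterols are scarce. LXR signalling is best known from macrophages and liver, and in lymphocytes it is known to restrain proliferation.

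Signals are MAS5 intensities scaled to a common 2% trimmed mean. The floor was the median of all scaled values, a signal of 12.7, and probe sets above it on at least one array were taken as measured. Ratios are log2 marginal zone over follicular signal after lower values were raised to the floor, and a fold written as a minimum is relative to that floor. The sort was visible in its own gate genes: Cr2, which encodes CD21, was at 890 in marginal zone and 278 in follicular cells, and Fcer2a, which encodes CD23, was at 89.6 in marginal zone and 727 in follicular cells. B cell markers were detected in both samples, with all 7 that had a probe set measured and summed signals of 4818 in marginal zone and 5281 in follicular cells. They covered a range of log2 ratios from -0.93 for Cd79b to 1.14 for Blk, a kinase of the B cell receptor and the one B cell marker past 2-fold.

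Both efflux pumps and the ubiquitin ligase gene Mylip had much lower signals in marginal zone than in follicular cells, while Cyp39a1 stood out in the opposite direction. Rxrb, Apoe and Srebf1 lay within 2-fold, Rxra gave only a minimum difference because its marginal zone signal was below the floor, and Nr1h3 gave no ratio. Of 8 measured genes, 3 were lower and 1 was higher in marginal zone cells by 2-fold or more. Across all 7695 measured genes, 4.86% were lower in marginal zone cells by 2-fold or more and 4.39% were higher there by that much. By probe set, 3 of the 10 measured were lower and 1 higher by that much in marginal zone cells, beside 5.02% and 4.36% of all 11671 measured probe sets with 1 gene. The members were chosen on this contrast, so their share is not evidence about the group. Their median log2 ratio was -0.64, beside -0.03 over all measured genes. In RNA from a sorted population, fewer cells expressing a gene and less RNA per cell cannot be told apart.

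**Figure D1:**
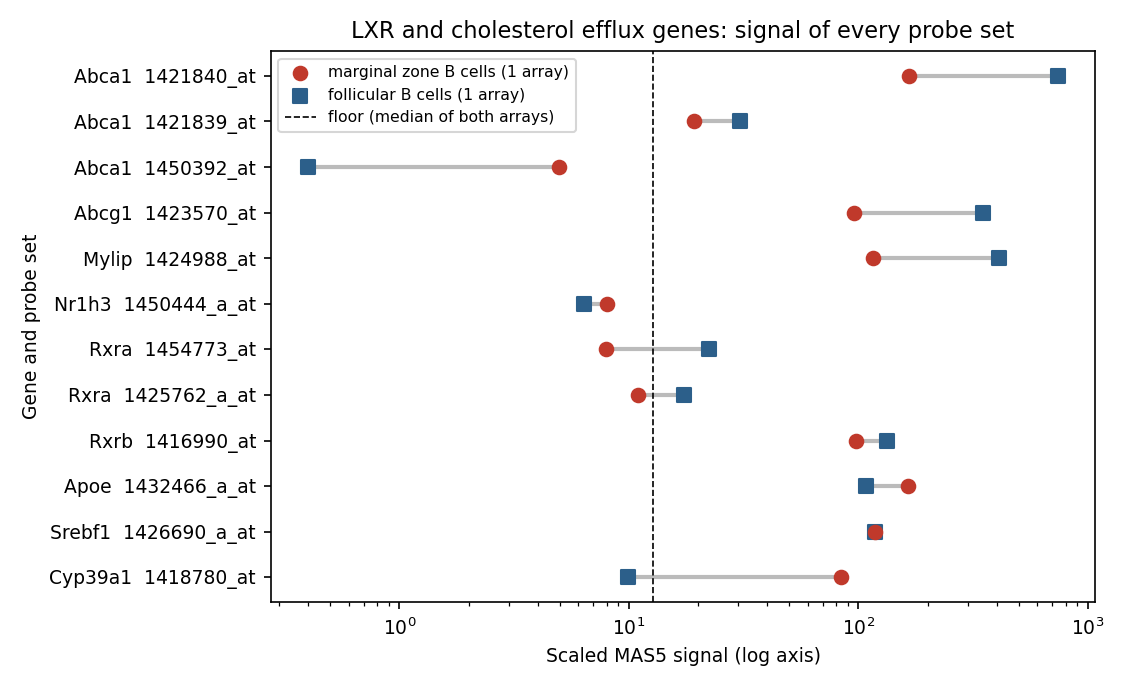
Scaled MAS5 signal (log axis) of the 12 probe sets of the 9 genes, with marginal zone B cells as red circles, follicular B cells as blue squares and the floor of 12.7 as a dashed line. For the brightest Abca1 probe set and those of Abcg1 and Mylip the marginal zone circle lies far to the left of the follicular square, and Cyp39a1 exceeds the floor in marginal zone cells only.

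Abca1 encodes the pump that loads cholesterol and phospholipid onto lipid-poor apolipoprotein A-I. Its probe set 1421840_at had a signal of 166 in marginal zone and 739.6 in follicular cells, 4.47-fold lower in marginal zone cells, a log2 ratio of -2.16. In follicular cells this value exceeded 97.7% of all probe sets on the array, and in marginal zone cells 90.1%. By this probe set Abca1 was thus well above the floor in both populations. Its log2 ratio ranked 16 of 7695 genes from the follicular end. A dimmer Abca1 probe set, 1421839_at, was at 19.2 in marginal zone and 30.4 in follicular cells, 1.58-fold lower in marginal zone cells. The last, 1450392_at, was below the floor on both arrays, at 4.95 in marginal zone and 0.40 in follicular cells, and gave no ratio. The 2 measured probe sets agreed in direction but not in size, and their mean log2 ratio was -1.41. Over the 2622 genes with several measured probe sets, the SD between probe sets of a gene was 0.43 on the log2 scale.

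Abcg1, which passes cholesterol on to mature high-density lipoprotein, differed by a similar factor. Its only probe set was at 95.5 in marginal zone and 350.2 in follicular cells, 3.67-fold lower in marginal zone cells with a log2 ratio of -1.87. That ratio ranked 34 from the follicular end. Like Abca1, it remained in the upper part of the marginal zone array, above 84.8% of probe sets there, as Mylip was above 86.7%.

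Promoter sequences of the group were searched for the DR4 element, the arrangement that LXR and retinoid X receptor dimers are known to bind: 2 copies of AGGTCA in the same direction with 4 free bases between them, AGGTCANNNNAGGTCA, on both strands. The windows ran from 250 bases before to 50 bases after each annotated start, as RefSeq gives them on GRCm38.p6, and covered 8 of the 10 genes with 15 starts; Abcg1 and Cyp39a1 had no entry. Overlaps with other motifs were not assessed. No member matched this exact repeat with fewer than 3 mismatches in the 12 fixed letters, and 21.9% of all 32851 promoter windows matched as well or better. The count scores letters against that repeat only. Whether the receptors bind sites that differ from it was not tested, so the count does not show that a site is absent. At 3 mismatches stood Abca1, 1 of 3 starts of Srebf1 and 1 of 2 starts of Rxra, while the best match of Mylip had 5, which 99.8% of all windows reach. The best matches of Abca1 and Srebf1 had the same half-sites, with the same 3 differences from the repeat, A1G, C5T and A11C, counted from the 5′ end of the element. That exact pair, GGGTTA and CGGTCA with 4 free bases between, was then searched in all windows, a choice made after the matches were seen. It was found in 3 windows, 0.00913% of them, which belong to Abca1, to Srebf1 and to Fasn, the fatty acid synthase gene. Because the pair was taken from the Abca1 and Srebf1 windows, those matches were certain beforehand, and only that of Fasn was not. These elements are shown because 3 genes whose log2 ratios differed share the letters of both half-sites; capitals mark the half-sites.
Abca1 element: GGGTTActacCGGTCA
Fasn element: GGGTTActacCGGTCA
Srebf1 element: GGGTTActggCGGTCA

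The full windows follow, each on the strand of its gene, with the 16 bases of the element in capitals. In all 3 the element reads on the strand opposite to the gene, so the capitals are its reverse complement. The Abca1 window is chr4:53159846-53160145 on the minus strand, with the element at positions -67 to -52 from the start. The Fasn window is chr11:120824498-120824797 on the minus strand, with the element at -225 to -210. The Srebf1 window is chr11:60210422-60210721 on the minus strand, with the element at -182 to -167.
Abca1: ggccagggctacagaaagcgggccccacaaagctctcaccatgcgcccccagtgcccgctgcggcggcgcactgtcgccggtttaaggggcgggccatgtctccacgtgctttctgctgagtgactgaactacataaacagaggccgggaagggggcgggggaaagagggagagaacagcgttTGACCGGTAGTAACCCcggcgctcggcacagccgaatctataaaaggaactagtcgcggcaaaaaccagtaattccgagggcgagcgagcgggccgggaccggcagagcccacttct
Fasn: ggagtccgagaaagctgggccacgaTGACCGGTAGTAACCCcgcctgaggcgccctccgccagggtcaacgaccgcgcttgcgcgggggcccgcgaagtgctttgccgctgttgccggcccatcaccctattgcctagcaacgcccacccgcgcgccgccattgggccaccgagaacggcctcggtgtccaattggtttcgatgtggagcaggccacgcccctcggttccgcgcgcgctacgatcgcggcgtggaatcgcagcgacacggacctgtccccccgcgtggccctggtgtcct
Srebf1: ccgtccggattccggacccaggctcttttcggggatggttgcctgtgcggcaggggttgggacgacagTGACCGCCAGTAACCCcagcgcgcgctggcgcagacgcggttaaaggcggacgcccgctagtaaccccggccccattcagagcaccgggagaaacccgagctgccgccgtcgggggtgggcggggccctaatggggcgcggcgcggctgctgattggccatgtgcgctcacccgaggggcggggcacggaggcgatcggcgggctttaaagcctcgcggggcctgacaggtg

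Signals at these 3 genes went separate ways. Abca1 was 4.47-fold lower in marginal zone cells, Srebf1 was at the same level in both, and Fasn was at 133 in marginal zone and 79.0 in follicular cells, 1.68-fold higher in marginal zone cells. The letters of the Abca1 and Fasn elements are identical, spacer included, and the log2 ratios of these genes were -2.16 and 0.75. Fasn was named after its sequence match and its values were seen. A match describes letters in a window, and occupancy by a receptor was not measured here. Whether the elements bear on these ratios was not tested.

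Of the receptors with a probe set, Nr1h3 and Rxra were dim and Rxrb was within 2-fold. LXR beta, encoded by Nr1h2, had no probe set, so its level is not known here. Nr1h3, which encodes LXR alpha, the form abundant in macrophages and liver, was below the floor on both arrays, at 8.02 in marginal zone and 6.37 in follicular cells, so no fold is given. Rxrb, the retinoid X receptor beta gene, was clearly detected, at 97.2 in marginal zone and 134 in follicular cells, 1.38-fold lower in marginal zone cells. Rxra, the alpha form, was near the floor by both of its probe sets. Its probe set 1454773_at was at 7.92 in marginal zone and 22.3 in follicular cells, and 1425762_a_at at 11.0 in marginal zone and 17.4 in follicular cells. Both were below the floor in marginal zone cells only, which gives minimum differences of 1.76-fold and 1.37-fold. Without a floor the log2 ratio of 1454773_at would be -1.50, past 2-fold, and that of 1425762_a_at -0.66, within 2-fold. Signals of different probe sets depend on their probes, so the levels of Rxra and Rxrb are not set against each other.

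Among the LXR targets of the group, Mylip sided with the pumps, Apoe went the other way and Srebf1 was level. Mylip, also called IDOL, encodes the ubiquitin ligase that marks the low-density lipoprotein receptor for degradation. It was at 116 in marginal zone and 411 in follicular cells, 3.55-fold lower in marginal zone cells with a log2 ratio of -1.83, rank 38 from the follicular end. Abca1, Abcg1 and Mylip thus stood at ranks 16, 34 and 38. By the probe set used for each, all 3 were well above the floor in both populations. Srebf1, the gene of the SREBP-1 factors of fatty acid synthesis, was at 118 in both populations, a log2 ratio of -0.0007. Its probe set, of the type that detects alternative transcripts together, does not separate the SREBP-1a and SREBP-1c forms.

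Apoe, which encodes the apolipoprotein E secreted by macrophages and liver to accept cholesterol, was at 165 in marginal zone and 108 in follicular cells, 1.53-fold higher in marginal zone cells. Measured macrophage and monocyte markers went in the same direction. All 11 of them, of 19 with a probe set, were higher in the marginal zone sample, 3 of them at least 2-fold. Cd68, C1qb, Cd5l, Cd14, Vcam1 and Slc40a1 exceeded the floor in the marginal zone sample only, so the rule for measured genes fixed their direction. The summed signal of the 19 was 436 in marginal zone and 209.9 in follicular cells. Csf1r, the receptor for macrophage colony-stimulating factor, was at 42.5 in marginal zone and 17.3 in follicular cells, and Lyz2, a lysozyme, at 25.2 in marginal zone and 12.9 in follicular cells. Ctsb, a cathepsin that many cells express, contributed most to that sum, at 181 in marginal zone and 74.8 in follicular cells. C1qa, C1qc, Marco, Siglec1, Mertk, Itgam, Fcgr1 and Hmox1 were below the floor on both arrays, with signals in both directions. The part of macrophage RNA in the values of Apoe and of the other members was not tested.

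Markers of other cells were also examined. Some were lower in marginal zone cells, as were Abca1, Abcg1 and Mylip and 4018 of all 7695 measured genes. All 3 measured markers of T and natural killer cells, of 8 with a probe set, were lower there. Cd3e and Cd4 exceeded the floor in follicular cells only, so the rule for measured genes fixed their direction. The summed signal of the 8, those below the floor included, was 46.7 in marginal zone and 89.5 in follicular cells. Zap70, a kinase of the T cell receptor, was at 20.0 in marginal zone and 47.2 in follicular cells, 2.36-fold lower in marginal zone cells, and Cd3e was at 1.29 in marginal zone and 17.2 in follicular cells. With the floor at the 75th percentile the log2 ratio of Zap70 was -0.05, and with a pseudocount -0.87, neither past 2-fold, against -1.24 as reported. The other Zap70 probe set was below the floor on both arrays, at 10.1 in marginal zone and 0.61 in follicular cells. Cd3d, Cd3g, Cd8a, Lat and Nkg7 were also below the floor on both arrays, with signals in both directions. Of 5 plasma cell markers, 3 were higher and 2 lower in marginal zone cells, with summed signals of 1249 in marginal zone and 1030.3 in follicular cells. Sdc1, the plasma cell antigen CD138, was at 4.35 in marginal zone and 68.3 in follicular cells, lower by at least 5.39-fold in marginal zone cells, and 2 of its other 3 probe sets were lower there as well. The log2 ratio of Sdc1, -2.43 as reported, became -0.58 and fell short of 2-fold once the floor was raised to the 75th percentile. Prdm1, a repressor that drives plasma cell formation, was higher by 2.43-fold in marginal zone cells, and by a log2 ratio of 0.78, within 2-fold, with a pseudocount. Of the markers of dendritic cells, granulocytes and erythroid cells, 3, 3 and 1 were measured, and 0 were past 2-fold. The part of these cells in the members' values was not tested.

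Cyp39a1 was the member with the widest difference. The enzyme hydroxylates 24-hydroxycholesterol, an oxysterol that activates LXR, on its way to bile acids. The signal was 84.2 in marginal zone and 9.90 in follicular cells, below the floor in follicular cells, so that the marginal zone signal was higher by at least 6.65-fold, rank 11 of 7695 genes from that end. It exceeded 83.2% of probe sets on the marginal zone array and 42.9% on the follicular array. The fold depends on the floor: with the floor at the 75th percentile of signals, 45.7, the log2 ratio was 0.88 and no longer past 2-fold, against 2.73 as reported. Only 1 probe set reported on Cyp39a1.

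**Figure D2:**
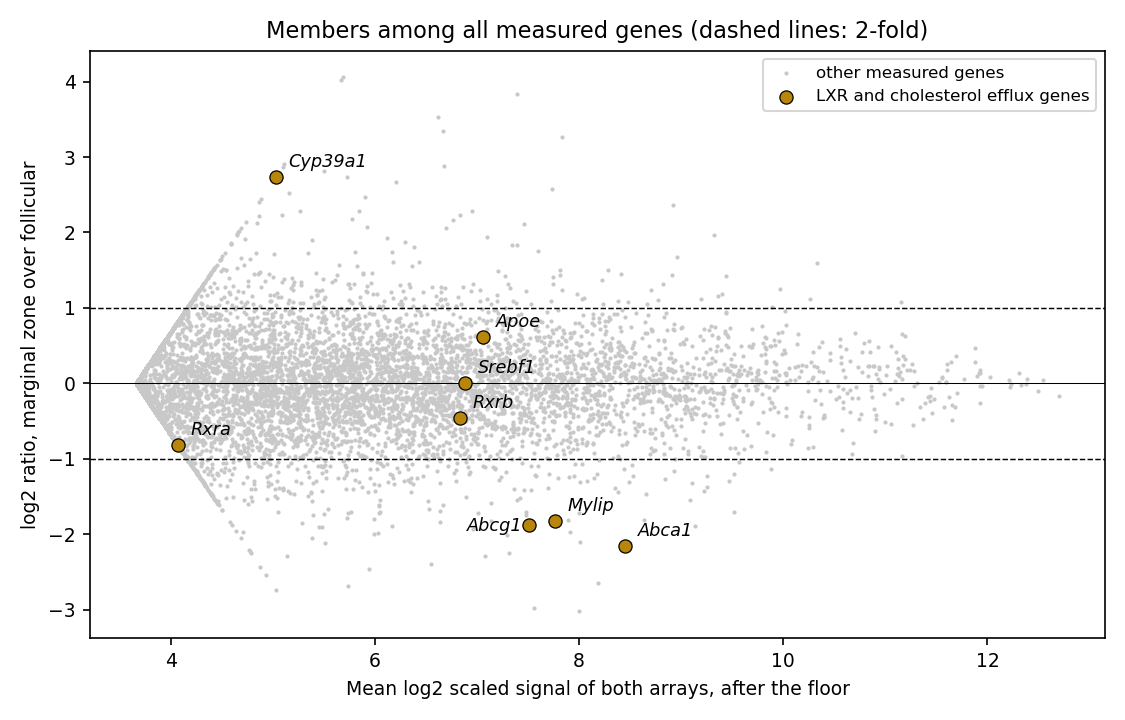
Log2 ratio (marginal zone over follicular) against the mean log2 signal of both arrays, after the floor, for 7695 measured genes (grey) and the 8 measured members (gold); dashed lines mark 2-fold. Abca1, Abcg1 and Mylip lie at the lower edge of the cloud at high signal, whereas Cyp39a1 lies on the left edge, where one of the values is at the floor.

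Other genes of the pathway, from lists drawn up by function with earlier results of these data known, went in both directions. Of 17 measured genes listed as LXR targets outside the group, 10 were higher and 7 lower in marginal zone cells. By 2-fold or more 2 were higher and 1, Abca7, was lower. Whether each listed gene responds to LXR in these cells was not tested. Their median log2 ratio was 0.26. Abca7, a pump related to Abca1, was at 22.2 in marginal zone and 49.9 in follicular cells, 2.25-fold lower in marginal zone cells. Scd1, the desaturase that makes monounsaturated fatty acids, was at 1648 in marginal zone and 3201 in follicular cells, 1.94-fold lower, and its dimmer probe set was 1.59-fold lower. On the other side stood Tgm2, a transglutaminase, and Cd5l, an apoptosis inhibitor made by macrophages. Tgm2 was at 36.0 in marginal zone and 0.61 in follicular cells by the probe set that ranked first after the floor, higher by at least 2.84-fold in marginal zone cells. The log2 ratios of its other 4 measured probe sets lay between -0.06 and 0.35. With the floor at the 25th percentile or with no floor another probe set ranked first, and the log2 ratio of Tgm2 was 0.15. Cd5l, which also counts among the macrophage markers above, was at 26.7 in marginal zone and 11.1 in follicular cells, at least 2.11-fold higher. Abca7, Tgm2 and Cd5l were all within 2-fold when a pseudocount replaced the floor, and Abca7 also with the floor at the 75th percentile.

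The partners and coregulators of the receptors included many below the floor. Of 29 with a probe set 15 were measured, and by the probe set ranked first for each gene 0 were past 2-fold in either direction. Other probe sets of Nr4a2 and Tbl1xr1, named after their values were seen, were higher by at least 2.83-fold and 2.08-fold in marginal zone cells. With the floor at the 25th percentile 4 genes were lower past 2-fold, and with no floor 1. Crebbp, a histone acetyltransferase, was 1.51-fold and Nr4a1, an orphan nuclear receptor induced by antigen, 1.51-fold lower in marginal zone cells, at 213 against 322 in follicular cells for Nr4a1. Carm1, an arginine methyltransferase, was 1.56-fold higher in marginal zone cells, and the coactivator gene Ppargc1b was at least 1.48-fold lower there. The 14 below the floor on both arrays included Rxrg, Vdr, Pparg, Ppara, Rara and Thra.

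Enzymes that make or clear oxysterols, counted with oxysterol-binding proteins, had 9 of 19 measured and 0 past 2-fold. That count depends on the floor: 2 were higher and 1 lower past 2-fold in marginal zone cells with the floor at the 25th percentile, and 3 were higher and 1 lower with no floor. Ch25h, the cholesterol 25-hydroxylase, was at 22.0 in marginal zone and 8.29 in follicular cells, higher by at least 1.73-fold in marginal zone cells, and its log2 ratio was 1.41 without a floor. Cyp7a1, the rate-limiting hydroxylase of bile acid synthesis in liver, was at 22.9 in marginal zone and 6.06 in follicular cells by one probe set, a log2 ratio of 1.91 without a floor, and below the floor by the other. Osbpl11, an oxysterol-binding protein, was 1.74-fold lower in marginal zone cells, at 67.7 against 118 in follicular cells, and Hsd11b1 at least 1.36-fold lower. Cyp7b1, Cyp46a1 and Hsd3b7 were among the 10 below the floor on both arrays.

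Of 17 measured genes of cholesterol synthesis, 13 were lower in marginal zone cells, as were 4018 of all 7695 measured genes. Their median log2 ratio was -0.13, beside -0.03 over all genes. By 2-fold or more 4 were lower and 0 higher in marginal zone cells, beside 4.86% and 4.39% of all measured genes. The 4 were Msmo1, Sc5d, Fdft1 and Sqle, which act between squalene formation and the last steps of the sterol ring. Idi1, Cyp51, Nsdhl and Dhcr7 were higher in marginal zone cells, all within 2-fold, and Cyp51, Nsdhl and Dhcr7 act in that same stretch. Sc5d, a sterol desaturase, was at 40.2 in marginal zone and 95.9 in follicular cells, and Msmo1, a methylsterol oxidase, at 10.8 in marginal zone and 32.4 in follicular cells. Fdft1, squalene synthase, and Sqle, squalene epoxidase, stood right at the threshold, at 26.8 and 37.7 in marginal zone against 54.0 and 75.5 in follicular cells. The count of 4 became 2 under each of the 4 other scalings, and with the mean over the probe sets of each gene, and 1 with the floor at the 75th percentile or with a pseudocount. It was 7 with the floor at the 25th percentile, 6 with no floor and 5 with the probe set of largest difference. Hmgcs1, which makes the precursor of mevalonate and was named after its values were seen, was level by its brightest probe set at 205 in marginal zone and 214 in follicular cells, while the log2 ratios of its other 3 probe sets lay between -1.26 and 0.04. The 5 measured genes of SREBP processing, Srebf2, Scap, Insig2, Mbtps1 and Ufd1, were within 2-fold by their brightest probe sets. Srebf2, the gene of SREBP-2, was at 32.5 in marginal zone and 37.2 in follicular cells by one probe set and at 18.3 in marginal zone and 37.0 in follicular cells by the other. Insig2, which retains the SREBP complex in the endoplasmic reticulum, had 3 probe sets, all lower in marginal zone cells, from -0.09 to -0.99 on the log2 scale.

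Among 12 measured genes of cholesterol uptake, storage and movement, 1 was past 2-fold in each direction. Cd36, a scavenger receptor for oxidised lipoprotein, was at 634 in marginal zone and 44.5 in follicular cells, 14.2-fold higher in marginal zone cells. Gramd1a, which carries cholesterol from the plasma membrane to the endoplasmic reticulum, was 2.02-fold lower in marginal zone cells, a difference that fell short of 2-fold under all 4 other scalings. Stard3, a sterol carrier of late endosomes, was 1.88-fold lower, at 31.3 in marginal zone and 58.7 in follicular cells. Scarb1, the high-density lipoprotein receptor, was at 21.8 in marginal zone and 1.31 in follicular cells by one probe set, but at 13.8 in marginal zone and 13.3 in follicular cells by another. Of 14 measured genes of fatty acid synthesis 0 were past 2-fold. Elovl5, a fatty acid elongase, was at 1365 in marginal zone and 799 in follicular cells, higher by 1.71-fold in marginal zone cells, and its other probe set was 1.76-fold higher. Lpin1, a phosphatidate phosphatase, was 1.71-fold higher in marginal zone cells, and Acss2, which makes acetyl-CoA from acetate, 1.85-fold lower.

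The wider family of ABC transporters, with 18 other members measured of 34, was evenly divided. There were 9 higher and 9 lower in marginal zone cells, with 2 past 2-fold in each direction and a median log2 ratio of 0.08. Abcb1a, which encodes the multidrug pump P-glycoprotein, was at 92.0 in marginal zone and 39.3 in follicular cells, 2.34-fold higher in marginal zone cells, with its other probe set also past 2-fold. The related Abcb1b was at 30.3 in marginal zone and 6.37 in follicular cells, at least 2.39-fold higher. Abcb8, a mitochondrial transporter, was at least 2.45-fold lower in marginal zone cells, at 3.66 against 31.0 in follicular cells, and its other probe set was below the floor on both arrays.

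**Figure D3:**
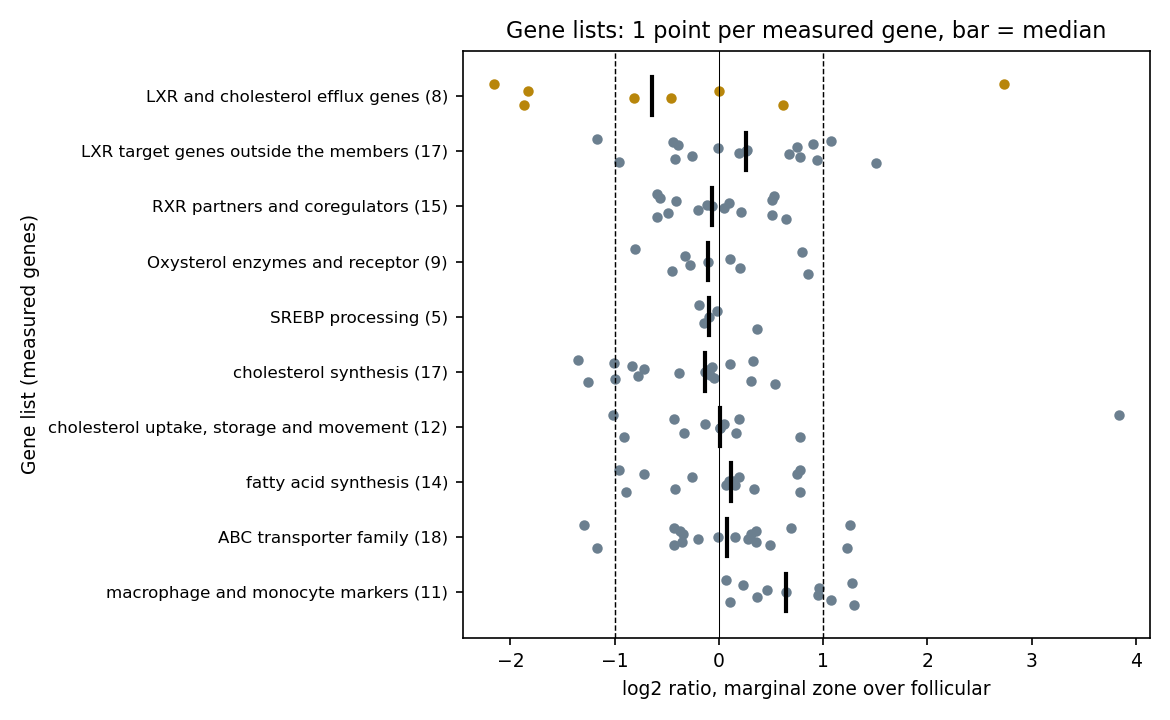
Log2 ratio (marginal zone over follicular) for each measured gene of the group (gold) and of the other lists (grey), with the number of measured genes in brackets, the list median as a bar and 2-fold as dashed lines. Medians of the pathway lists lie between -0.13 and 0.26. All 11 measured macrophage markers lie above 0, including those that exceeded the floor in marginal zone cells only.

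The direction of the 4 members past 2-fold was the same under the alternatives tried, which these settings could hardly have changed. All of them reuse the same 2 arrays, and a floor or pseudocount alters the size of a ratio but does not reverse it. Abcg1, Mylip and Cyp39a1 have 1 probe set each, so the probe set rules leave them unchanged. Signals of Abcg1 and Mylip lie above every floor used. Across 10 other settings of scaling, floor and probe set choice, the log2 ratio of Abca1 ran from -2.20 to -1.41, that of Abcg1 from -1.87 to -1.75 and that of Mylip from -1.83 to -1.72. Cyp39a1 ran from 0.88 to 3.09 and passed 2-fold in 9 of the 10. For Rxrb the range was -0.46 to -0.38, for Apoe 0.56 to 0.69 and for Srebf1 -0.0007 to 0.08. Rxra, measured in 9 of the 10, ran from -0.82 to -0.64.

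**Figure D4:**
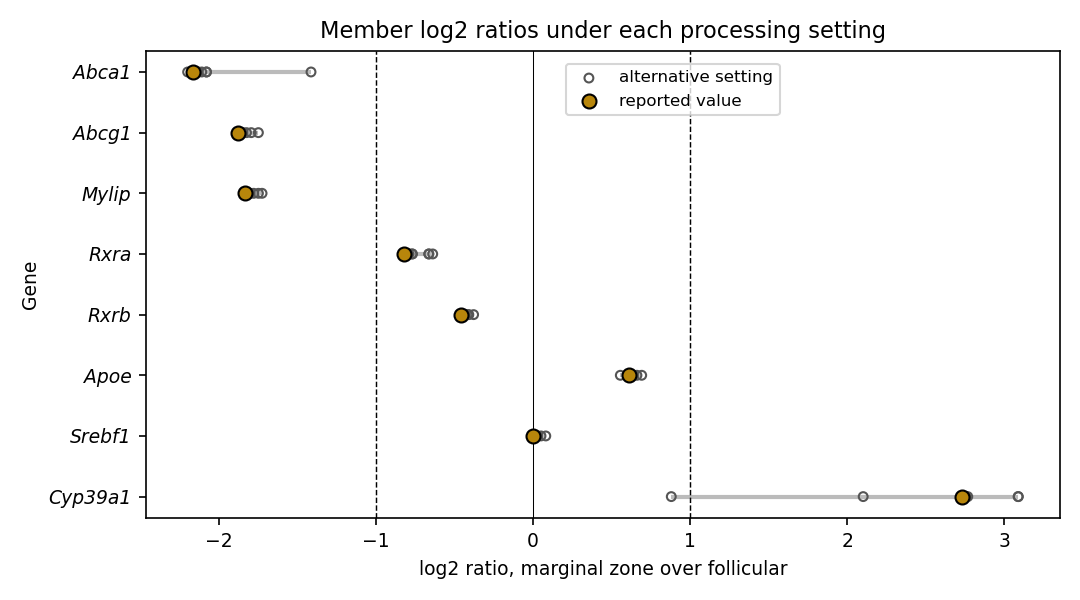
Log2 ratio (marginal zone over follicular) of each of the 8 measured members, as reported (gold) and under each alternative setting (open circles), with 2-fold as dashed lines. Abca1, Abcg1 and Mylip stay below -1 under every setting shown, and Cyp39a1 is the member whose value depends most on the floor.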

How the data were processed

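Per the submitters' processing notes the deposited intensities are MAS5 signals, a linear value for each probe set; no source used here states the version, the scaling target or detection calls. Their 2% trimmed means were 52.4 for marginal zone and 51.3 for follicular B cells over 22626 probe sets. Each array was scaled to their mean (factors 0.990 and 1.01), and the floor was set at the median. Genes came from the platform annotation: 20380 probe sets had 1 gene, 691 several and 1555 were not listed, and 20351 of the 20380 matched RefSeq by Entrez identifier, with 0 symbols changed. Where a gene had several measured probe sets, the one with the highest mean on the log2 scale, after the floor, was used. No test was possible with 1 array per group. Genes named outside the group are the up to 4 most different genes of each list, by absolute log2 ratio. Others with values of their own are marked in the text, and genes named only as below the floor or within 2-fold also fall outside that rule and were named after their values were seen. The rule also picked the 3 genes nearest to Abca1 in signal, which are not given, since signals of different probe sets depend on their probes. The members and lists were chosen with earlier results of these data known. No protein table was used. The fold calculation was tested on simulated data and the motif search on short written sequences with known answers. Python 3.11.15, numpy 2.4.6, pandas 2.3.3, scipy 1.17.1 and matplotlib 3.10.9 were used. Alternatives covered scaling (4), the floor at other percentiles (2) or absent, a pseudocount of 12.7 instead, probe set rules (2) and thresholds of 1.5-fold and 3-fold.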

Additional observations from a re-analysis of the deposited data

How the results depend on the processing

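Of the 12 alternatives, 10 recompute a ratio, and no member past 2-fold, and no gene past 2-fold that the naming rule picked, changed sign under them. Other genes were not followed. The alternatives reuse the same 2 arrays, so an unchanged sign says nothing about replication. The count of members higher in marginal zone cells by 2-fold or more was 0 with the floor at the 75th percentile and 2 at a threshold of 1.5-fold, for genes and probe sets alike, and that of probe sets at least as much lower was 5 at 1.5-fold. Over all genes, counts higher in marginal zone and higher in follicular cells were 338 and 374 as reported, 1277 and 1389 with the floor at the 25th percentile, 125 and 143 with it at the 75th, 782 and 872 with no floor, 1051 and 1218 at 1.5-fold, and 66 and 67 at 3-fold. A lower floor admits more dim probe sets, and a threshold shifts counts by construction. The cholesterol synthesis count of 4 ran from 0 at 3-fold to 7 at 1.5-fold or with the floor at the 25th percentile. With the floor at the 25th percentile, the counts higher and lower in marginal zone cells became 1 and 1 for fatty acid synthesis, 3 and 4 for cholesterol uptake, storage and movement, and 4 were lower for ABC transporters and for LXR targets outside the group. Alternatives for the pathway lists and for genes outside the group were added after seeing the data. Rxra was not measured with the floor at the 75th percentile. Values near the floor have no reliable order, which limits Rxra, Nr1h3 and Cyp39a1. No paired analysis was possible because each population has 1 array, and for the same reason no array could be left out.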
